A study of Mus musculus with 2 samples.

Results

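Foxo1, Foxo3, Txnip, Ndn and Socs2 are 5 genes linked to the resting state of blood stem cells, and they were followed through single-cell RNA sequencing of mouse bone marrow after irradiation. They were chosen by name from the 31053 genes in the data, with earlier results of these data known, and each symbol matched exactly 1 gene. The cells were LSK cells, the sorted marrow fraction without lineage markers and with surface Sca1 and c-Kit. The control library came from C57BL/6J mice labelled as control. The irradiated library came from C57BL/6J mice whose marrow was taken on day 15 after 5.0 Gy of total body irradiation. All mice were 6 to 8 weeks old. The number and sex of the animals behind each library are not given in the sources used here. With 1 library per group, treatment and library cannot be told apart, no test between groups was possible, and every interval below covers counting error only.

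FoxO transcription factors are held in the cytoplasm when the PI3K and AKT kinases are active and enter the nucleus when that signalling is low. There they drive genes for cell cycle arrest, antioxidant defence and autophagy, and loss of FoxO factors is known to exhaust blood stem cells. Txnip encodes thioredoxin-interacting protein, an arrestin-family protein that binds thioredoxin and limits glucose uptake. Its transcription follows glucose through the MondoA and Mlx factors, and its loss also reduces the stem cell pool. Ndn encodes necdin, a growth suppressor of the MAGE family that is expressed from the paternal allele only and binds p53 and E2F proteins. Socs2 encodes a suppressor of cytokine signalling that is induced by STAT5 and in turn dampens cytokine receptors.

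Foxo1 lies on chromosome 3 at 52268336 to 52353221 and Txnip on chromosome 3 at 96557957 to 96561883, both on the plus strand of GRCm38. Ndn lies on chromosome 7 at 62346569 to 62350262 on the plus strand. Foxo3 lies on chromosome 10 at 42181841 to 42276755 and Socs2 on chromosome 10 at 95385362 to 95417180, both on the minus strand. All 5 are protein-coding genes in GENCODE M21. An antisense gene overlaps Txnip, Gm15441, with levels of 1.59 and 0.873 CPM. Foxo1 is overlapped by the antisense gene Gm20402 and, on its own strand, by Gm38034. Ndn is overlapped by Gm32061 on the other strand. CPM are counts per 1000000 UMIs, a UMI (unique molecular identifier) marks 1 captured RNA molecule, and paired values give the control library first and the irradiated library second throughout.

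RefSeq promoter windows on GRCm38.p6, each covering 250 bases before to 50 bases after the gene's RefSeq start, were found for 4 of the 5 genes. For Ndn that start lies inside the GENCODE gene given above, so its window does not cover the GENCODE start at 62346569. Bases around that GENCODE start were not searched. The 2 windows printed here belong to the genes with the largest decreases, Txnip and Ndn. Capitals mark the FoxO element GTAAACA and the carbohydrate response element, here 2 copies of CACGAG with 5 bases between them as known from Txnip itself, both searched on each strand.
Txnip, chr3:96557707-96558006, plus strand: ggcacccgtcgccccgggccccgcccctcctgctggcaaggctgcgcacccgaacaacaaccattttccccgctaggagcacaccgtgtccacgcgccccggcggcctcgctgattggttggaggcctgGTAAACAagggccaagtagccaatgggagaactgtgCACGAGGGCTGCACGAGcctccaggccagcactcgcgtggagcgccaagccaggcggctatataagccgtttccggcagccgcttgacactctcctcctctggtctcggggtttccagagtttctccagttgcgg
Ndn, chr7:62348027-62348326, plus strand: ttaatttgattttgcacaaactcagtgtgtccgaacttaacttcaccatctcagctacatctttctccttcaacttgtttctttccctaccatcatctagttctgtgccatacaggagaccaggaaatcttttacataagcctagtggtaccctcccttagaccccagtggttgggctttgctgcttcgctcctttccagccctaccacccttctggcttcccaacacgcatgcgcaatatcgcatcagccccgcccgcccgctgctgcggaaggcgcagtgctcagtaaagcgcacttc
In the Txnip window GTAAACA began 121 bases before the start, and 1199 of 32851 promoter windows of the same length (3.65%) held that element. The carbohydrate response element began 85 bases before the start of Txnip. No other window among the 32851 held these letters, which were chosen because Txnip is known to carry them. The Ndn, Foxo1 and Foxo3 windows held neither sequence, which says only that these letters are not within those 300 bases.

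After filtering there were 7189 control cells with a median of 16084 UMIs and 5112 irradiated cells with a median of 29615 UMIs. The cells fell into 17 clusters, of which 10 took a name from marker genes and 7 did not, and the 5 genes and their pathway lists were kept out of the clustering. Named clusters are called "-like". The clustering drew 15 neighbours of each cell from each library, which links cells across the libraries, and all class ratios rest on that choice. A class was compared when it had at least 100 control cells and at least 100 irradiated cells, which gave 9 classes. The mix of classes differed between the libraries. HSC-like cells (HSC, haematopoietic stem cell) were 1648 of the control cells (22.9%) and 338 of the irradiated cells (6.61%), while neutrophil-primed-like cells were 310 (4.31%) and 1525 (29.8%). The libraries shared 11 cell barcodes among the kept cells. The genes of the sorted surface proteins were detected in both, Ly6a (Sca1) at 156 and 218 CPM and Kit at 132 and 73.5 CPM over all cells.

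Over all cells, Txnip, Foxo3 and Foxo1 were lower and Socs2 was higher in the irradiated library. A call needed a ratio of CPM of 1.5 or more in one direction and a mean CPM of 5 or more, a size rule that called 13.8% of 9032 measured genes lower and 5.23% higher. Txnip levels were 119 and 39.1 CPM, for a log2 ratio of irradiated over control of -1.60 (95% interval -1.64 to -1.56). Foxo3 levels were 46.9 and 25.5 CPM (log2 ratio -0.88, -0.94 to -0.82). Foxo1 levels were 8.03 and 4.49 CPM (log2 ratio -0.84, -0.98 to -0.70). Socs2 ran the other way, at 4.38 and 8.30 CPM (log2 ratio 0.92, 0.78 to 1.06). Ndn had 593 UMIs in control (4.29 CPM) and 52 in irradiated cells (0.320 CPM), a log2 ratio of -3.75 (-4.19 to -3.34). Its mean lay under 5 CPM, so the call rule does not count it.

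These sums mix classes whose levels differ. In control cells Foxo3, Txnip, Ndn and Socs2 were all highest in HSC-like cells among classes with at least 100 cells. For Ndn the interval of HSC-like cells overlapped that of megakaryocyte-primed-like cells (15.2 and 14.8 CPM), and for Socs2 it overlapped that of B lineage-like cells (17.0 and 13.1 CPM). HSC-like cells held 53.5% of all control Ndn UMIs and 58.5% of all control Socs2 UMIs, but 36.2% of Txnip, 23.3% of Foxo1 and 22.8% of Foxo3 UMIs. Neutrophil-primed-like cells were lowest in control for Foxo1, Txnip, Ndn and Socs2, with 31.1 CPM of Txnip, 0.401 CPM of Ndn and 0.200 CPM of Socs2. Foxo1 was highest in B lineage-like cells, with 73.8 CPM in 113 control cells and 53.8 CPM in 24 irradiated cells. FoxO1 is a known regulator of B cell development.

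**Figure D1:**
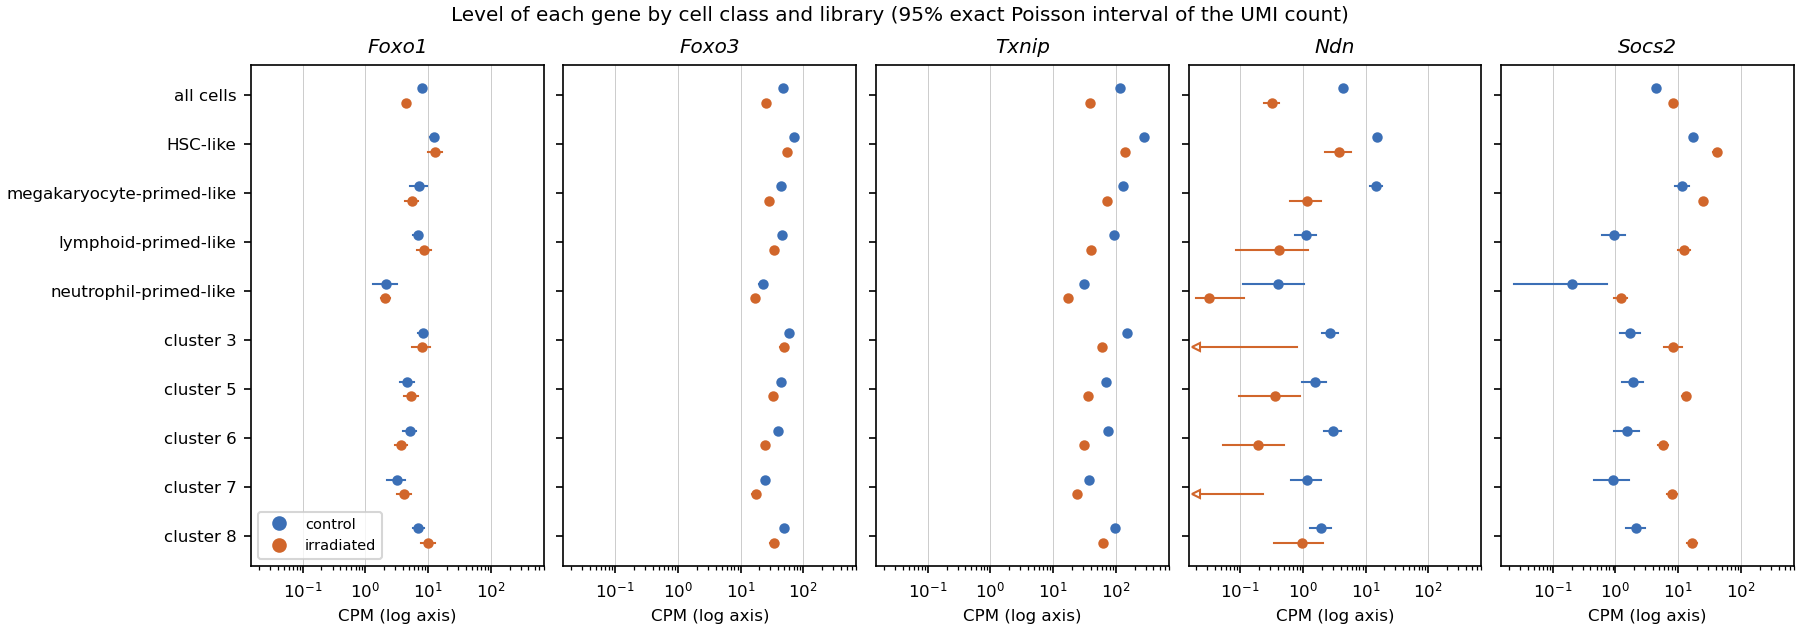
Level of each gene in CPM (log axis) over all cells and in the 9 compared classes, with control cells in blue and irradiated cells in orange; lines are 95% exact Poisson intervals and open triangles mark 0 UMIs. Control Txnip lies to the right of irradiated Txnip in every class, and Socs2 shows the reverse order in every class.

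To separate levels within clusters from the mix of clusters, the irradiated cluster levels were weighted by the control library's share of UMIs over the 17 clusters. At that fixed mix the log2 ratio of Foxo1 was 0.07, against -0.84 over all cells. Foxo3 moved to -0.42, Txnip to -0.90 and Ndn to -1.73. Socs2 moved further from 0, to 2.14. At the fixed mix 1 of the 5 genes (Txnip) passed 1.5-fold lower and 1 (Socs2) passed it higher, while Ndn stayed under the CPM minimum. The fixed mix was computed for the 5 genes only, so no share of all genes can stand beside these counts. With 30 neighbours drawn from all cells for the clustering, Txnip stood at -0.52 and no gene passed 1.5-fold lower.

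**Figure D2:**
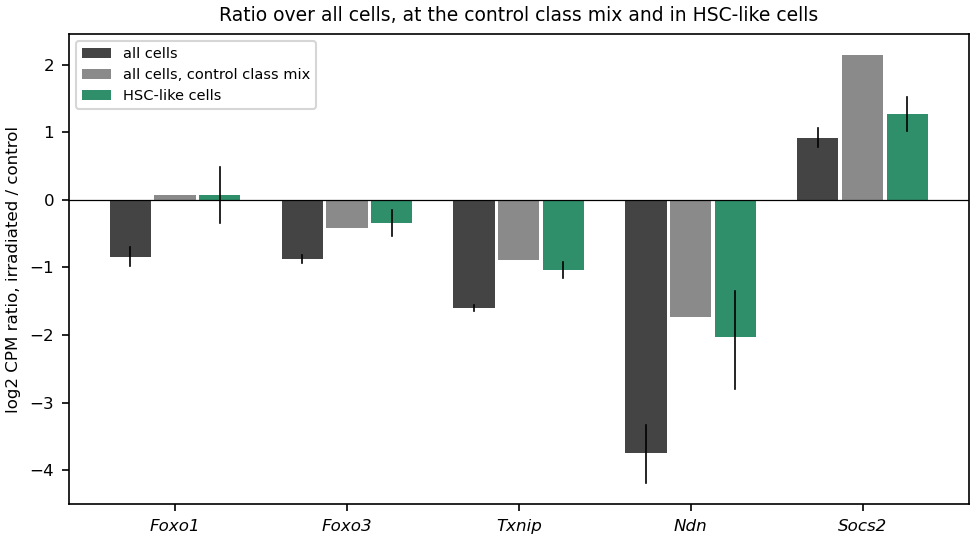
Log2 CPM ratio of irradiated over control for each gene over all cells, over all cells at the control class mix, and within HSC-like cells; black lines are 95% exact intervals, which were not computed for the fixed mix. The Foxo1 bar goes from -0.84 over all cells to 0.07 at the fixed mix, and the Socs2 bar from 0.92 to 2.14.

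Foxo1 and Foxo3, the transcription factors, differed little within HSC-like cells. Foxo1 levels there were 12.4 CPM (95% interval 10.9 to 14.0) and 13.1 CPM (10.1 to 16.7), for a log2 ratio of 0.08 with an interval from -0.34 to 0.48. Across the 9 classes Foxo1 was lower in 4 and higher in 5. It was called in none of the 6 classes where it reached the CPM minimum, and lay under it in cluster 6, cluster 7 and neutrophil-primed-like cells. Among the 9, its interval left 0 in cluster 8 alone, which is led by the mitotic genes Ube2c and Cenpf (7.04 and 10.0 CPM, log2 ratio 0.51, 0.04 to 0.98).

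Foxo3, the FoxO factor most tied to stem cell maintenance, had levels of 70.8 and 55.8 CPM in HSC-like cells (log2 ratio -0.34, -0.53 to -0.15). It was lower in all 9 classes with every interval below 0. It passed 1.5-fold in 2 of them, megakaryocyte-primed-like cells (44.6 and 28.8 CPM, where 8.4% of genes were called lower) and cluster 6, led by histone genes and Top2a (40.3 and 24.5 CPM, 7.89%). In the megakaryocyte-primed-like cells 179 of 289 control cells lay in cluster 12, while 269 of 529 irradiated cells lay in cluster 13, which also carries mast cell and proliferation genes. Foxo3 levels were 46.1 and 24.7 CPM in cluster 13, and the difference in cluster 12 was smaller (43.4 and 35.04 CPM). After thinning the class to 5000 UMIs a cell, the log2 ratio of Foxo3 in it was -0.32, short of 1.5-fold, as it was with each cell weighted equally (-0.54) and with 30 neighbours drawn from all cells for the clustering (-0.23).

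Txnip was lower in every class compared. In HSC-like cells its levels were 285 CPM (277 to 292) and 138 CPM (128 to 149), for a log2 ratio of -1.04 (-1.16 to -0.92), where 6.23% of 9411 measured genes were called lower. It was called lower in all 9 classes, including clusters 5, 6 and 7, where 6.1%, 7.89% and 4.08% of genes were called lower. The log2 ratios ran from -0.62 in cluster 8 (95.8 and 62.5 CPM, 4.96% of genes called lower) to -1.35 in cluster 3 (154 and 60.5 CPM, 7.51%), an unnamed cluster led by Wfdc17, Sema3d and Ccl3. In lymphoid-primed-like cells the levels were 95.5 and 40.3 CPM (log2 ratio -1.24, 6.29% of genes called lower), and in megakaryocyte-primed-like cells 132 and 73.3 CPM (-0.84). In neutrophil-primed-like cells they were 31.1 and 17.2 CPM (-0.85, 4.16%). There 202 of 310 control cells lay in cluster 9 and 1035 of 1525 irradiated cells in cluster 4, and Txnip was lower in each of them (35.8 and 23.8 CPM in cluster 9, 24.96 and 14.9 CPM in cluster 4). The 8 mature neutrophil markers summed to 4534 and 154 CPM in this class, with none at 0 and with 8 and 4 of them at or above 5 CPM, and their part in the Txnip difference was not tested. The Txnip call in neutrophil-primed-like cells was lost at clustering resolution 0.5 (log2 ratio -0.56) and with 30 neighbours from all cells (-0.57), and that in megakaryocyte-primed-like cells with 30 neighbours (-0.42).

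The decrease of Txnip was also seen in counts of cells. After every cell was thinned to 5000 UMIs, 65.2% of control HSC-like cells and 38.1% of irradiated HSC-like cells had a Txnip UMI (84.1% and 63.6% before thinning). In neutrophil-primed-like cells, the class with the lowest level, the thinned shares were 11.4% (8.04% to 15.4%) and 8.03% (6.71% to 9.51%), with overlapping intervals. Median depth before thinning was 11386 and 13678 UMIs in HSC-like cells and 30291 and 40912 in neutrophil-primed-like cells. Txnip was also lower within HSC-like cells of like cell cycle phase, with 320 and 156 CPM in cells scored as G1 and 158 and 66.5 CPM in those scored as S phase (47 irradiated cells). The share of HSC-like cells scored as G1 was 79.9% in control and 77.9% in irradiated cells.

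The HSC-like class holds a pair of clusters with different Txnip levels. Cluster 2 (1195 control and 293 irradiated cells; its top genes include Hlf and Procr) had 223 and 112 CPM of Txnip (log2 ratio -0.999, -1.14 to -0.86). Cluster 11 (453 control and 45 irradiated cells; its top genes include Meg3, Cdkn1c, Mllt3 and Ndn itself) had 479 and 374 CPM (log2 ratio -0.36, -0.58 to -0.14). Cluster 11 was thus higher than cluster 2 in each library. The 45 irradiated cells of cluster 11 are under the minimum for a class, so its values are a description, and fewer of the irradiated HSC-like cells lay in it.

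**Figure D3:**
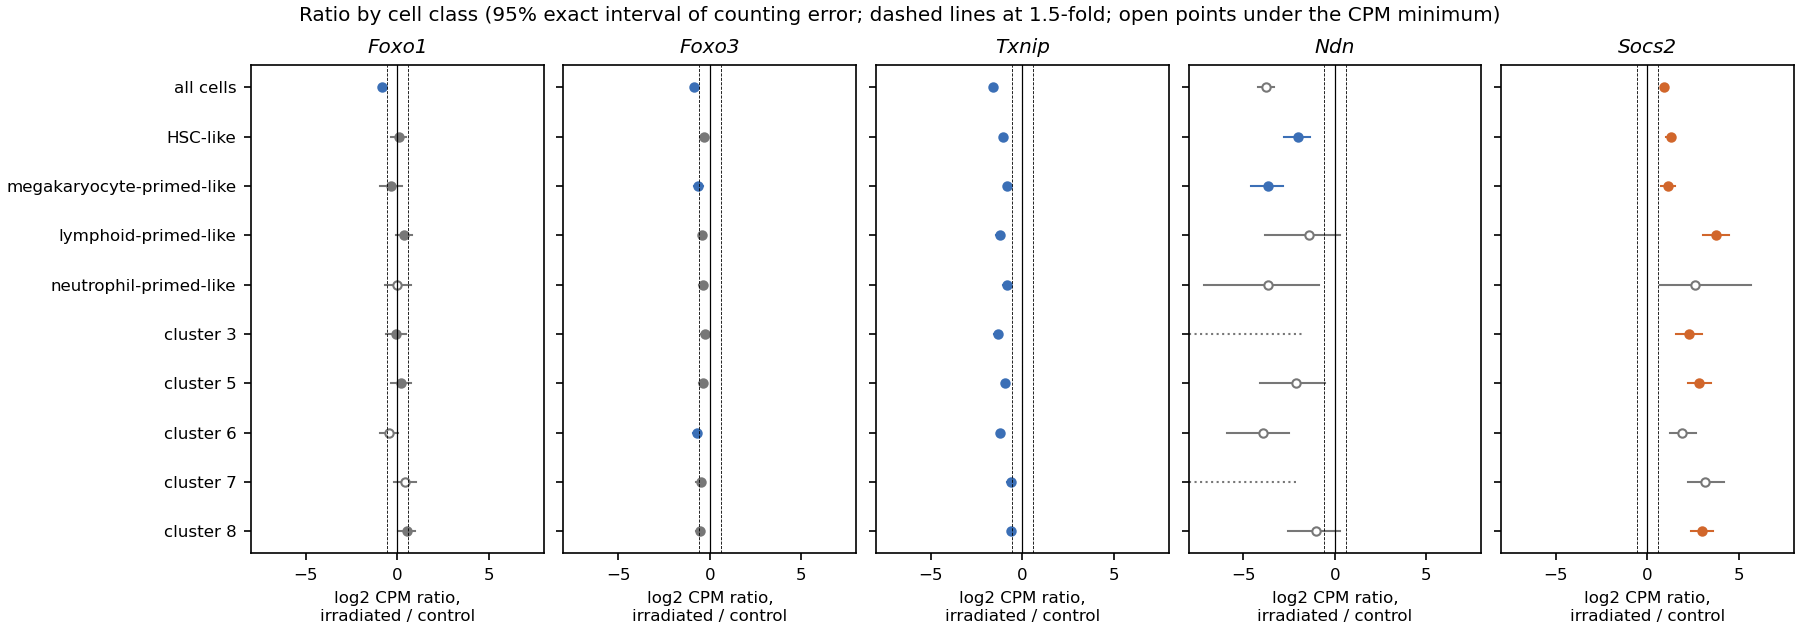
Log2 CPM ratio of irradiated over control for each gene over all cells and in the 9 compared classes, with 95% exact intervals; dashed lines mark 1.5-fold, blue and orange points are called lower and higher, open points lie under the CPM minimum, and dotted lines are upper limits where the irradiated class had 0 UMIs. Txnip is left of the dashed line in all 9 classes, and Foxo1 lies between the dashed lines in all 9.

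Ndn, the imprinted growth suppressor, was highest in control in HSC-like and megakaryocyte-primed-like cells, and it was lower in both in the irradiated library. In HSC-like cells it had 317 UMIs (15.2 CPM, 13.6 to 17.0) and 18 UMIs (3.74 CPM, 2.21 to 5.90), for a log2 ratio of -2.03 (-2.80 to -1.34). In megakaryocyte-primed-like cells it had 88 UMIs (14.8 CPM) and 14 UMIs (1.16 CPM), a log2 ratio of -3.68 (-4.61 to -2.85). The 8 mast cell and basophil markers summed to 1389 and 352 CPM in this class, with none at 0 and with 7 and 8 of them at or above 5 CPM, and their part in the values of the 5 genes there was not tested. With 30 neighbours from all cells the log2 ratio of Ndn in the class was -3.54, at a mean under the CPM minimum. Ndn was called lower in HSC-like and megakaryocyte-primed-like cells, where 6.23% and 8.4% of genes were called lower. It lay under the CPM minimum in the other 7 classes.

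In those 7 classes Ndn was at or under 3.02 CPM in control. No Ndn UMI was found in irradiated cells of cluster 3 or cluster 7, against 49 and 14 UMIs in control, and the upper 95% limits of the log2 ratio were -1.70 and -2.14. In lymphoid-primed-like cells the 27 control and 3 irradiated UMIs gave a 2.69-fold lower level, with a counting interval from 0.828 to 13.9, so no difference was detectable at this depth. After thinning, 7.17% of control and 1.81% of irradiated HSC-like cells had a Ndn UMI (14.5% and 4.14% before thinning). The thinned share in neutrophil-primed-like cells was 0.325% in control and 0.0658% in irradiated cells.

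The Ndn values in irradiated cells rest on few cells. The 10 cells with the most Ndn UMIs held 77.8% of them in irradiated HSC-like cells and 9.78% in control HSC-like cells. Without those 10 cells in each library the log2 ratio in HSC-like cells was -4.02. Those 10 cells hold a far larger share of the irradiated Ndn UMIs, so leaving them out lowers the ratio by itself. In cluster 11 Ndn levels were 40.6 and 22.5 CPM (202 and 11 UMIs, log2 ratio -0.85, -1.88 to 0.02), and in cluster 2 they were 7.26 and 1.62 CPM (115 and 7 UMIs, log2 ratio -2.17, -3.51 to -1.08). Cluster 11 has Ndn among its top genes although Ndn was left out of the clustering, and it held 453 of 1648 control but 45 of 338 irradiated HSC-like cells.

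Socs2, the feedback suppressor of cytokine signalling, was higher in the irradiated library in all 9 classes, each with an interval above 0, which none of the other 4 genes was. In HSC-like cells its levels were 17.0 CPM (15.3 to 18.9) and 41.1 CPM (35.6 to 47.2), for a log2 ratio of 1.27 (1.01 to 1.53), where 3.17% of genes were called higher. It was called higher in 6 classes, and its mean was under the CPM minimum in cluster 6, cluster 7 and neutrophil-primed-like cells, where 2.89%, 2.31% and 2.7% of genes were called higher. In neutrophil-primed-like cells the ratio rests on 2 control and 77 irradiated UMIs (log2 ratio 2.60, 0.70 to 5.67). Megakaryocyte-primed-like cells had 11.6 and 25.4 CPM (log2 ratio 1.13, 2.76% of genes called higher).

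The Socs2 ratios were larger where control cells had almost none. Lymphoid-primed-like cells had 23 UMIs in control (0.953 CPM) and 91 in irradiated cells (12.6 CPM), a log2 ratio of 3.73 (3.05 to 4.45; 3.09% of genes called higher). Cluster 5, whose leading genes include the S phase gene Ung, had 1.91 and 13.4 CPM (2.81, 2.69% called higher). Cluster 8 had 2.13 and 16.7 CPM (2.98, 2.62%) and cluster 3 had 1.73 and 8.32 CPM (2.27, 3.41%). In lymphoid-primed-like cells 10 cells held 46.2% of the irradiated Socs2 UMIs, and leaving out the 10 highest cells per library took the mean under 5 CPM and ended the call.

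By cells, 7.48% of control and 13.9% of irradiated HSC-like cells had a Socs2 UMI after thinning (14.9% and 29.0% before). The thinned shares were 0.405% and 5.28% in lymphoid-primed-like cells and 0.325% and 0.461% in neutrophil-primed-like cells, where the intervals overlapped. As with Txnip and Ndn, cluster 11 was the higher of the HSC-like pair, with 47.8 and 165 CPM against 7.33 and 27.0 CPM in cluster 2. The log2 ratios were 1.79 (1.41 to 2.16) and 1.88. In cluster 11 the irradiated value rests on 45 cells, of which 10 held 64.2% of the UMIs. Both clusters thus gave a larger ratio than the class as a whole (1.27), in which cluster 11 makes up fewer of the irradiated cells.

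**Figure D4:**
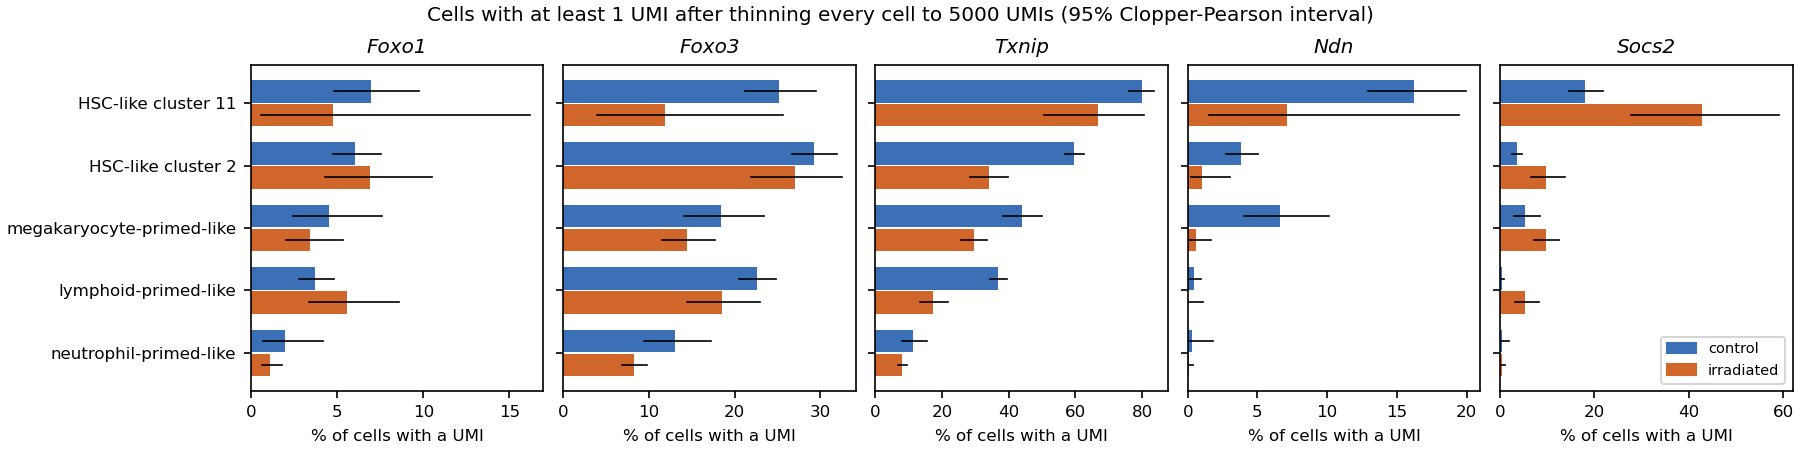
Percent of cells with at least 1 UMI of each gene after thinning every cell to 5000 UMIs, for the HSC-like clusters and 3 further classes; blue bars are control, orange bars irradiated, and black lines are 95% Clopper-Pearson intervals. Txnip shares are lower in irradiated cells in every class shown, with overlapping intervals in cluster 11 and in neutrophil-primed-like cells. Socs2 shares in cluster 11 go from 18.0% to 42.9%.

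Detection of the genes in the same cell was examined in thinned HSC-like cells. Of the 122 thinned control HSC-like cells with a Socs2 UMI, 80.3% (72.2% to 87.0%) also had a Txnip UMI, against 64.0% (61.5% to 66.4%) of the 1510 cells without Socs2. In irradiated HSC-like cells the shares were 52.2% (36.9% to 67.1%) of 46 cells and 35.8% (30.2% to 41.7%) of 285 cells, with overlapping intervals. Cluster 11 is the higher of the HSC-like pair in both genes, and the shares were not taken within clusters. In control cells Ndn was found in 8.20% of the cells with Socs2 and 7.09% of those without, with overlapping intervals. Foxo3 was found in 24.6% and 28.4%. None of the 5 genes was seen in 21.6% of control and 39.9% of irradiated HSC-like cells.

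Levels over the 18 sums of 9 classes in 2 libraries were also compared between genes, as a description only, since sums of 1 library share its depth and preparation. Pearson's r of log2(CPM + 1) was 0.92 between Foxo3 and Txnip and 0.85 between Txnip and Ndn. For Socs2 it was 0.66 with Foxo1, 0.25 with Foxo3, 0.30 with Txnip and 0.24 with Ndn. Socs2 was compared with 5275 genes at a mean level from 20 CPM upward, and Skp1a, Igtp, Nr4a2 and Commd7 were among the 5 most like Socs2 (r from 0.87 to 0.89). The most like Txnip were Pura, Dcun1d1, Pcmtd1, Swt1 and Letm2 (0.96 to 0.98), and the most like Foxo3 were Jak1, AW112010, Dcun1d1, Map7 and Avl9 (0.97 to 0.98). Foxo1 was most like Paip2, Rsbn1l, Stat4, Sik1 and Saraf (0.95 to 0.97), and Ndn was most like Cic, Cfl2, Sugp2, Mga and Ubqln2 (0.88 to 0.89).

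The genes around the 5 were described by lists, none of which holds any of the 5. The lists were also chosen with earlier results of these data known, so their counts are a description only. Their counts are to be read against the shares of all measured genes, which were 13.8% lower and 5.23% higher over all cells and 6.23% lower and 3.17% higher in HSC-like cells. "Lowest" and "highest" below refer to the log2 ratio over all cells among genes of a list at a mean of 20 CPM or more. The list of FoxO factors and direct target genes also holds Foxj2, Foxk1, Foxk2, Foxm1 and Foxp1, forkhead genes outside the FoxO subfamily. Of its 42 measured genes, 18 were lower over all cells (against 13.8% of all genes) and none was higher (5.23%). The median log2 ratio was -0.48 against -0.06 for all genes. The lowest were Klf6 (255 and 94.6 CPM) and Klf2 (255 and 101 CPM), a pair of Krüppel-like transcription factors. The antioxidant genes Prdx3 and Sod2 were highest, at log2 ratios of 0.46 and 0.39. Within HSC-like cells the count was 5 lower (against 6.23% of all genes) and 1 higher (3.17%) of 41, with Klf6 at 466 and 249 CPM. Chosen after their values were seen, the other 4 lower genes were Tsc22d3 (157 and 81.4 CPM), Sesn3 (38.1 and 20.3 CPM), Fbxo32 and Foxo4, and the higher gene was S1pr1, a receptor for cell egress (33.0 and 51.3 CPM).

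Upstream of FoxO, 7 of 46 measured PI3K, AKT and mTOR genes were lower over all cells, a share near the 13.8% of all genes, and none was higher. The lowest were Pik3r1, a regulatory subunit of PI3K (96.3 and 55.0 CPM), and Inpp5d, the lipid phosphatase SHIP1 (78.6 and 48.0 CPM). The highest were Eif4ebp1 (log2 ratio 0.30) and Akt1 (0.28), short of 1.5-fold. In HSC-like cells 2 of 49 were lower, among them Phlpp1, and 1 was higher (Sgk1), named after their values were seen, shares near or under those of all genes.

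Of the genes around Txnip and thioredoxin, 5 of 27 were lower over all cells (against 13.8% of all genes) and none was higher (5.23%). Tsc22d3, a glucocorticoid-induced gene, was lowest (76.6 and 31.7 CPM), followed at that level by Arrdc1 (log2 ratio -0.48, not called), and the peroxiredoxin Prdx5 (0.49) and the Mondo partner Mlx (0.46) were highest. Named after their values were seen, the other 4 lower genes were the arrestin-family gene Arrdc3, the thioredoxin reductase Txnrd3, the glucose transporter Slc2a3 and the mTOR inhibitor Ddit4, each at a mean under 20 CPM. In HSC-like cells, where 6.23% of all genes were lower and 3.17% higher, 3 of 27 were lower (Arrdc3, Txnrd3 and Tsc22d3) and 2 higher, the peroxiredoxin Prdx4 (64.7 and 101 CPM) and the hexokinase Hk2 (55.6 and 86.6 CPM), also named after their values were seen. Arrdc4, the arrestin-family gene that shares glucose-driven control with Txnip and was chosen after its value was seen, had 18.1 and 17.9 CPM in HSC-like cells (log2 ratio -0.02, -0.38 to 0.32). Thioredoxin itself, Txn1, had 574 and 808 CPM there (log2 ratio 0.49), also chosen after its value was seen.

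Of the necdin relatives, partners and imprinted genes, 5 were lower (against 13.8% of all genes) and 2 higher (5.23%) of 15 measured over all cells. At a mean of 20 CPM or more the ends were Kcnq1ot1 (log2 ratio -0.46) and Gnas (-0.19), and Gatm (0.84) and E2f4 (0.52). The 5 lower genes, named after their values were seen, were Maged1 (15.0 and 3.85 CPM), Maged2, Cdkn1c (9.12 and 2.69 CPM), Impact and Sgce, and the higher gene beside Gatm was Grb10. In HSC-like cells 5 of 19 were lower (against 6.23% of all genes) and none higher. Those 5, chosen after their values were seen, were the imprinted RNA Meg3 (23.6 and 2.49 CPM), the imprinted genes Phlda2 (18.5 and 4.15 CPM) and Cdkn1c, which encodes the cell cycle inhibitor p57 (31.4 and 17.4 CPM), and the MAGE family genes Maged1 (36.6 and 17.9 CPM) and Mageh1 (11.7 and 6.43 CPM). Meg3 and Cdkn1c are top genes of cluster 11, which held 453 of 1648 control but 45 of 338 irradiated HSC-like cells. HSC-like values of list genes, in every list, are for the whole class, and the part of cluster 11 in them was not tested.

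Of the SOCS, JAK and STAT5 genes, 6 were lower and 3 higher of 40 over all cells, shares near the 13.8% and 5.23% of all genes. The cytokine receptors Flt3 (127 and 46.4 CPM) and Kit (132 and 73.5 CPM) were lowest, and the cytokine Osm (13.2 and 34.9 CPM) and the receptor subunit Csf2rb (17.4 and 28.5 CPM) were highest at a mean of 20 CPM or more. The third higher gene, named after its value was seen, was the transcription factor Gfi1b, with a larger ratio at a lower level (4.79 and 14.7 CPM). In HSC-like cells 9 of 41 were higher (against 3.17% of all genes) and 2 lower (6.23%). Osm levels there were 10.1 and 28.0 CPM, Csf2rb levels 17.0 and 26.8 CPM and Flt3 levels 76.5 and 31.8 CPM. Chosen after its value was seen, the related suppressor Socs3 had 60.7 and 110 CPM (log2 ratio 0.85).

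Other quiescence and dormancy genes were lower over all cells in 20 of 36 (against 13.8% of all genes) and higher in 1 (5.23%), with a median log2 ratio of -0.62. Egr1, an immediate early transcription factor (269 and 85.1 CPM), and Hes1, a Notch target (54.9 and 19.4 CPM), were lowest. Hspa5, an endoplasmic reticulum chaperone (264 and 611 CPM), was the higher gene, and Ifitm3 came next (log2 ratio 0.45). In HSC-like cells 7 of 40 were lower (against 6.23% of all genes) and 1 higher (the transcription factor Gfi1, named after its value was seen, 15.4 and 25.5 CPM), with Egr1 at 727 and 389 CPM. Cell cycle genes showed 7 higher (against 5.23% of all genes) and 1 lower (13.8%) of 44 over all cells, led by Rrm2 (49.1 and 114 CPM) and Ccnd1 (30.1 and 53.9 CPM), with Ccnd2 (log2 ratio -0.38) and Cdk6 (-0.27) lowest at a mean of 20 CPM or more. The gene called lower, named after its value was seen, was Mycn (12.3 and 5.81 CPM). In HSC-like cells 7 of 37 were higher (against 3.17% of all genes) and none lower.

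**Figure D5:**
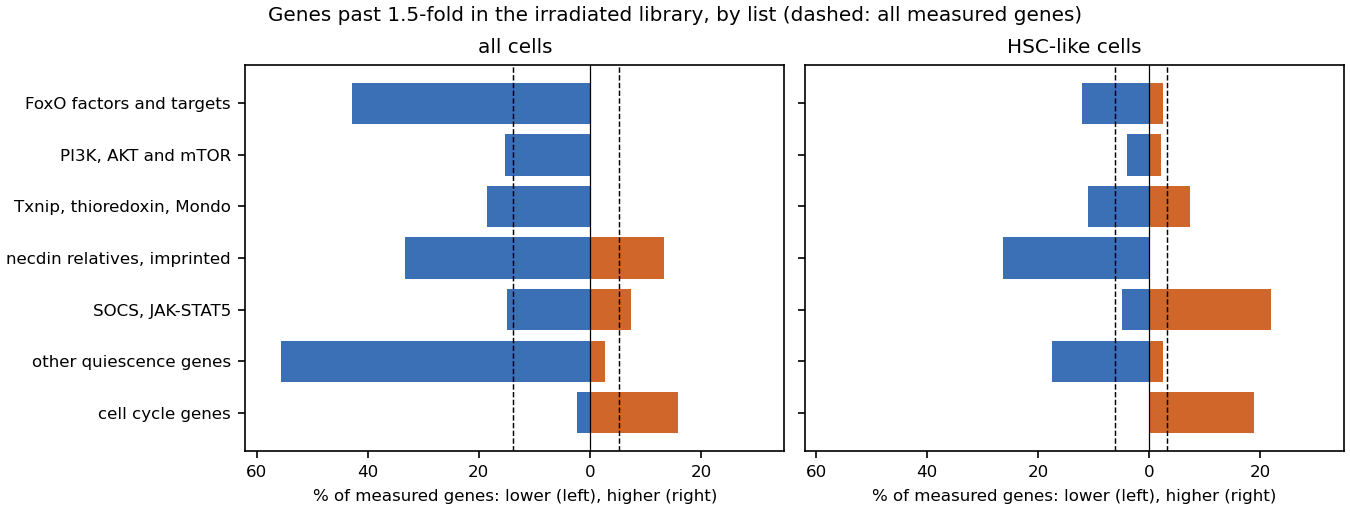
Percent of the measured genes of each list past 1.5-fold lower (blue, to the left) and higher (orange, to the right) in the irradiated library, over all cells and in HSC-like cells; dashed lines give the share over all measured genes. The longest blue bar over all cells is that of the quiescence genes (20 of 36), and the longest orange bar in HSC-like cells that of the SOCS, JAK and STAT5 genes (9 of 41).

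Over all 7 lists, with a gene in several lists counted once, 52 genes were lower and 13 higher. With edgeR's TMM factor, which raised every log2 ratio over all cells by 0.17, the split was 38 lower and 33 higher. With median-of-ratios size factors, a shift of 0.21, it was 37 and 36. The calls of Foxo1, Foxo3, Txnip and Socs2 over all cells were kept under both. The 13.8% and 5.23% of all genes hold for the unshifted ratios only. Shares of all genes under the 2 factors were not computed, so those splits cannot be read against all genes.

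Summed levels of the marker lists, of which some are given here, went both ways in the HSC-like class. The summed level of the 12 HSC markers was 918 and 719 CPM, and all 12 were at or above 5 CPM in irradiated cells. The 9 neutrophil-primed markers summed to 730 and 944 CPM, with Fcnb at 0 in both, and the 11 erythroid-primed markers to 818 and 696 CPM. The 8 mature neutrophil markers summed to 37.3 and 19.3 CPM. Lymphoid-primed markers summed to 421 and 322 CPM, monocyte/dendritic-primed markers to 240 and 169 CPM, and T/NK lineage markers to 178 and 256 CPM. The part of these markers in the differences of the 5 genes was not tested.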

How the data were processed

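Single-cell 3' RNA libraries of sorted LSK cells, 1 control and 1 irradiated, were analysed from raw UMI counts per gene and barcode, as deposited by the authors. Per the submitters' processing notes, Cell Ranger 2.1.1 and mm10 were used; per the file headers, the matrices carry software version 3.1.0. Strand use in counting is not given in the sources used here. The 5 genes, the 7 gene lists and the 13 marker lists were chosen with earlier results of these data known.

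Cells had at least 1000 UMIs, 500 genes and at most 10% mitochondrial UMIs; 496 of 7686 control and 468 of 5596 irradiated barcodes failed. Scrublet in scanpy 1.11.5 marked 1 and 16 doublets, which were removed (0.0139% and 0.312%), so doublet calling has not worked. Kept cells held 138113621 and 162741683 UMIs. Clusters came from 2000 variable genes, 30 principal components, 15 neighbours per library and Leiden resolution 1. A cluster was named, by a rule set after the data were seen, from at least 3 markers among its 25 top genes. UMIs were summed per class and divided by the class total (CPM). Ratios carry exact Clopper-Pearson and levels exact Poisson 95% intervals. Phases and shares of cells used cells thinned to 5000 UMIs, leaving out 66 control and 59 irradiated cells. Named genes are the 5, the 2 highest and 2 lowest of each list over all cells at a mean of at least 20 CPM, and the 5 most like each; others are said to be chosen later. Some genes that these rules or counts cover are not reported here. The interval and call rules were tested on simulated data. Alternatives, among them TMM factors from edgeR 4.0.16, are given in the closing section.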

Additional observations from a re-analysis of the deposited data

How the results depend on the processing

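No paired analysis was possible because each group holds 1 library. Over all cells the 3 lower genes and 1 higher gene were called under every alternative except a 2-fold rule, which called 1 (Txnip) lower and 0 higher. In HSC-like cells 2 lower and 1 higher were called under 10 of 11 alternatives, and naming each cell by its own markers called 3 lower (Foxo3 added) and 1 higher. With 30 neighbours from all cells this class, like the lymphoid-primed-like, had under 100 irradiated cells and was not compared. Under that setting some clusters came mostly from a single library, such as 1500 control and 21 irradiated cells, or 45 and 923. Others held more of both, such as 626 and 160. The within-class and fixed-mix ratios thus depend on drawing neighbours from each library. At the fixed mix the lower count went from 1 to 0 at 2-fold and with 30 neighbours from all cells. In megakaryocyte-primed-like cells the 3 lower (Foxo3, Txnip and Ndn) went to 1 at 2-fold and 0 with 30 neighbours from all cells. In neutrophil-primed-like cells the 1 lower (Txnip) went to 0 at 2-fold, at resolution 0.5 and with 30 neighbours, and to 2 after thinning. In lymphoid-primed-like cells the 1 higher went to 2 after thinning or with each cell named by its own markers, and to 0 without the 10 highest cells. Over the lists, 13 higher genes became 23 with cells weighted equally, 25 after thinning, 33 with TMM, 36 with median-of-ratios factors, 5 at 2-fold and 20 with no CPM minimum; 52 lower became 26 at 2-fold, 27 at a mean of 20 CPM and 81 with no minimum. Why these counts moved was not tested, beyond what the rules themselves set. Shares of all genes under these alternatives were not computed. No called log2 ratio of the 5 genes changed sign. In HSC-like cells the ratio of Txnip ran from -1.26 to -0.72, of Ndn from -4.02 to -1.40, of Foxo3 from -0.73 to -0.27, of Socs2 from 1.04 to 1.47 and of Foxo1 from -0.29 to 0.48. The -4.02 of Ndn came from leaving out the 10 highest cells, which takes a larger share of irradiated than of control Ndn UMIs. Using all deposited barcodes leaves class results as they are, since barcodes outside the kept cells have no class. At the fixed mix and without the 10 highest cells Ndn had no UMI left in irradiated cells and gave no ratio. Depth limits Ndn most, with 52 UMIs in the irradiated library.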
